A study of Mus musculus with 8 samples.

Results

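The respiratory chain was followed through 105 of the 50763 genes listed, 92 encoded in the nucleus and 13 in mitochondrial DNA. The nuclear members were all genes whose symbols follow those of the subunits of complexes I to V, namely the Nduf families a, b, c, s and v, Sdha to Sdhd, Uqcr, Cox4 to Cox8 and Atp5, less 15 rows named as pseudogenes. The mitochondrial members were the 13 protein genes of the organelle, ND1, ND2, ND3, ND4, ND4L, ND5, ND6, CYTB, COX1, COX2, COX3, ATP6 and ATP8. The rule goes by symbol. By complex, 41 nuclear members belonged to complex I, 4 to complex II, 8 to complex III, 21 to complex IV and 18 to complex V. These totals include Ndufa11b and Ndufs6b (complex I) and Cox6c2 (complex IV), which RefSeq lists as pseudogenes and which were too low to be tested. Ndufa4 and its relative Ndufa4l2 were counted with complex IV, with which NDUFA4 protein copurifies, and Atp5if1, which encodes an inhibitor of complex V, with complex V.

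RNA had been sequenced from phagocytes of brains carrying a GL261 glioma, a mouse glioma line here marked with mCherry and EGFP. Live cells positive for both mCherry and CD45.2 had been sorted on day 23 after the tumour cells were placed in the brain. Tumours grew either in C57BL/6 wild type (WT) or in B cell-deficient muMT mice. In both hosts, mice were given isotype IgG as control or anti-CTLA-4, an antibody against an inhibitory receptor of T cells. This gave 4 groups of 2 libraries, named by host and antibody, such as WT isotype and muMT anti-CTLA-4. All 4 groups carried the tumour. Whether the 2 libraries of a group were from different animals is not given in the labels, and each p-value measures the spread between these libraries, which may be technical.

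Complexes I and II pass electrons from NADH and succinate to ubiquinone, complex III passes them to cytochrome c and complex IV to oxygen. The proton gradient made on the way drives complex V, the ATP synthase. Most subunits are encoded in the nucleus, while mitochondrial DNA, which is transcribed by its own polymerase into long precursors, encodes a core set for complexes I, III, IV and V. In macrophages, activation by bacterial products is known to lower oxidative phosphorylation in favour of glycolysis, while macrophages activated by IL-4 are known to rely on it.

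Reads assigned to genes ran from 24784639 to 31289104 per library. All 9 phagocyte markers, among them Ptprc, Itgam, Csf1r and Cd68, passed the filter on low counts, with summed levels of 10416 to 14796 CPM (counts per 1000000 reads in genes, scaled by TMM). Within the sort, 6 microglia markers summed to 1834 to 1956 CPM in muMT with isotype, 1203 to 1230 in muMT with anti-CTLA-4, 1633 to 1637 in WT given isotype, and 1409 to 1460 in WT given anti-CTLA-4. With anti-CTLA-4, 6 of the 6 fell in muMT and 3 of the 6 in WT. Over all genes tested, 20.4% fell and 22.1% rose in muMT, and 15.9% fell and 14.7% rose in WT. The 5 markers of monocyte-derived cells summed to 231 to 246, 522 to 527, 299 to 318 and 520.2 to 533 CPM in the same order, and 4 rose in muMT and 3 in WT. Their part in the results below was not tested. In bulk RNA, fewer cells of a type and less RNA per cell cannot be told apart. Reads that mapped to no gene were 20.4% and 20.8% of uniquely mapped reads in muMT isotype and 18.6% and 18.7% in muMT anti-CTLA-4. In WT they were 28.4% and 29.5% with isotype and 33.3% and 33.0% with anti-CTLA-4. This share was lower with anti-CTLA-4 in muMT and higher in WT, without overlap, and its part was not tested either.

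Promoters of 4 members, picked and not drawn at random, are shown because nuclear members moved together, as described further on. A second reason is that 3 sequence motifs are known from promoters of this family. The motifs searched were those of NRF1 (GCGCA, any base, then GCGC), of ETS factors such as GABP (CCGGAAG) and of YY1 (AANATGGCG), on both strands of the window from 250 bases before to 50 after each start site. Sdha (chr13:74350241-74350490, minus strand), the flavoprotein of complex II, held 3 NRF1 matches. Cox6a1 (chr5:115348959-115349208, minus strand), a complex IV subunit, held 2 NRF1 matches and 1 ETS match. Atp5pf (chr16:84834977-84835226, minus strand), a stalk subunit of complex V, held a YY1 and an ETS match at 1 of its 2 start sites. Ndufa4 (chr6:11907451-11907700, minus strand), the nuclear member that fell furthest in WT after the scarce Cox4i2, held none of these letters. The 250 bases before the start site are printed 5′ to 3′ from RefSeq (GRCm38.p6), with matches in capitals.
Sdha: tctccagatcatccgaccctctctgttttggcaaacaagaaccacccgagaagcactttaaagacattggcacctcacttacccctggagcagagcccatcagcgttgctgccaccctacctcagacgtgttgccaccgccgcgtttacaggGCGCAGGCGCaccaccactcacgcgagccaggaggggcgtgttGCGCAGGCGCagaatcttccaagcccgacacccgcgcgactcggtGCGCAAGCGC
Cox6a1: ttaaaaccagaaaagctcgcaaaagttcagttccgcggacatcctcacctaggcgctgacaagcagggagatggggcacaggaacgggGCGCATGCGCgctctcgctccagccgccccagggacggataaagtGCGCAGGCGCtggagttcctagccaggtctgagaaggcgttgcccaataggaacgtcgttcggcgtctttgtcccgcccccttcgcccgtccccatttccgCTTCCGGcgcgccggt
Atp5pf: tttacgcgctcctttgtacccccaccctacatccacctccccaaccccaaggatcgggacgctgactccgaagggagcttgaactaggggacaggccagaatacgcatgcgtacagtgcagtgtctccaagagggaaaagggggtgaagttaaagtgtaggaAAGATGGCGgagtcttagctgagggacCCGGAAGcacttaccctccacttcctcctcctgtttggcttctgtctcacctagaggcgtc
Ndufa4: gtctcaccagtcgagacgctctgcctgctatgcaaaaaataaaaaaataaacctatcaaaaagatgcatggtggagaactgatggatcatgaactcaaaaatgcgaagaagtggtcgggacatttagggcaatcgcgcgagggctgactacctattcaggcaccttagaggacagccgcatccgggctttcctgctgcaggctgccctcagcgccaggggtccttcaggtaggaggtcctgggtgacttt

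Of the nuclear members, 69 had a promoter window. NRF1 letters were in 17 of these (24.6%), against 5.19% of all 27025 genes with a window and 10.1% of those tested. ETS letters were in 16 (23.2%, against 9.93% of all and 18.2% of those tested), and YY1 letters in 10 (14.5%, against 2.76% and 5.25%). Any of these motifs was in 37 of the 69 (53.6%), against 15.9% of all genes with a window. Members with and without NRF1 letters had like median changes, as a description with no test. In WT, the median log2 fold change with anti-CTLA-4 was -0.19 for the 17 tested members with these letters and -0.20 for the 48 without. In muMT it was 0.33 with them and 0.32 without them. A match is a run of letters and says nothing of binding.

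The sum of the nuclear genes lay higher with anti-CTLA-4 in muMT and lower in WT. It was 6615 and 6562 CPM in the muMT isotype libraries and 8231 and 8317 in muMT anti-CTLA-4. In WT it was 6542 and 6187 CPM with isotype and 5436 and 5514 with anti-CTLA-4. The isotype libraries of the 2 hosts lay close together, with anti-CTLA-4 above them in muMT and below them in WT, and no library crossed over. As means, the sum was 25.6% higher with anti-CTLA-4 in muMT, from 6588 ± 37.6 to 8274 ± 60.3 CPM (SD, n = 2), and changed by -14.0% in WT, from 6365 ± 251 to 5475 ± 55.5 CPM.

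The sum of the mitochondrially encoded genes, of which COX1 held 92.6% to 94.8% in each library, followed another order. It was 5122 and 4769 CPM in muMT with isotype, 4650.2 and 4663 in muMT with anti-CTLA-4, 4141 and 4309 in WT given isotype, and 3289 and 3293 in WT given anti-CTLA-4. All 4 muMT libraries were above all 4 WT libraries, and the sum was lower with anti-CTLA-4 in both hosts, with changes of -22.1% in WT and -5.84% in muMT as means. This is mainly the order of COX1. Without it, the sum changed by -27.9% in WT and 7.65% in muMT, and the isotype libraries of the hosts overlapped. Reads of nuclear over mitochondrial members stood at 1.29 and 1.38 with isotype and 1.77 and 1.78 with anti-CTLA-4 in muMT. The WT ratios were 1.58 and 1.44 with isotype and 1.65 and 1.67 with anti-CTLA-4. The ratio was higher with anti-CTLA-4 in every library of both hosts, in muMT with the nuclear sum up and in WT with both sums down.

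**Figure D1:**
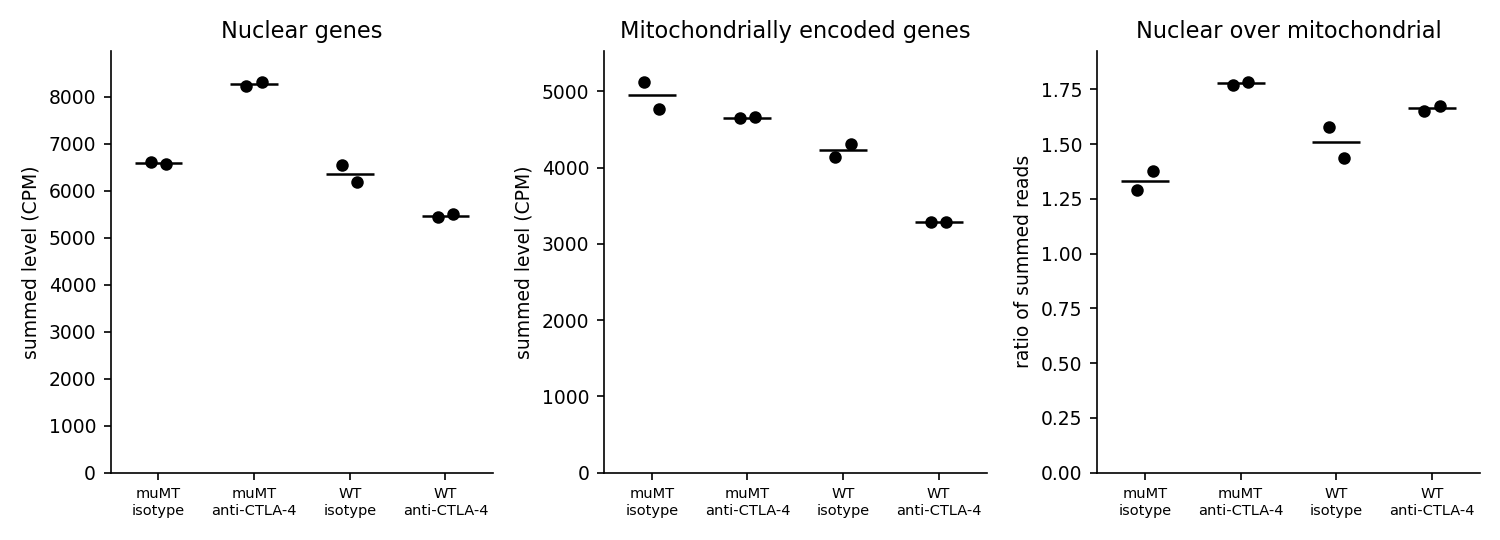
Summed level of the nuclear genes (left, CPM), of the mitochondrially encoded genes (middle, CPM) and the ratio of their reads (right) by group. Points are libraries and bars the means of 2; the nuclear sum is highest in muMT anti-CTLA-4 (8274) and lowest in WT anti-CTLA-4 (5475).

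The first comparison asked how anti-CTLA-4 changed these genes in hosts with B cells. In WT, 50 of the 82 tested nuclear members fell and none rose, with a median log2 fold change of -0.20 beside -0.01 over all 16608 genes tested. Of all genes tested, 30.5% were called in this comparison, 15.9% lower and 14.7% higher. No nuclear member was higher even at an unadjusted p under 0.05 in edgeR's quasi-likelihood test, nor in the Wald test of DESeq2, which called 34 lower. The changes were small, and 75 of the 82 lay below 0.

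In complex I, which oxidises NADH, 20 of 36 tested nuclear members fell in WT (median -0.20), 6 of the 7 core subunits among them. Ndufa6, an accessory subunit, was at 51.1 and 42.4 CPM in WT with isotype and 36.8 and 35.6 with anti-CTLA-4 (log2 -0.37 ± 0.07 SE, adjusted p = 0.000219). Its anti-CTLA-4 libraries were below both isotype libraries. Ndufc2, a further accessory subunit, fell by 0.26 on the log2 scale.

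In complex II, 3 of 4 subunits fell in WT. The flavoprotein gene Sdha stood at 188 and 186 CPM with isotype and at 154 and 157 with anti-CTLA-4 (log2 -0.27 ± 0.05, adjusted p = 2.73e-05). The membrane anchors Sdhc and Sdhd fell by 0.30 and 0.26. The iron-sulfur subunit gene Sdhb did not pass the test, with 90.2 and 89.6 CPM against 90.1 and 93.1 and libraries that overlapped.

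In complex III, 5 of 8 members fell in WT. Uqcr10, a small subunit, was at 51.4 and 44.0 CPM with isotype and 36.8 and 37.3 with anti-CTLA-4 (log2 -0.36 ± 0.07, adjusted p = 0.000148). Uqcrh, the hinge protein next to cytochrome c1, and Uqcrq fell by 0.26 and 0.29. The core protein gene Uqcrc1 was at -0.12 (adjusted p = 0.0862).

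In complex IV, cytochrome c oxidase, 9 of 16 tested nuclear members fell in WT. Cox4i1, the widely expressed form of subunit 4, was at 266 and 246 CPM with isotype and 206 and 209 with anti-CTLA-4 (log2 -0.30 ± 0.05, adjusted p = 4.4e-06). Cox8a fell by 0.28. In complex V, 13 of 18 fell. Atp5f1b, which encodes the catalytic beta subunit, was at 753 and 731 CPM with isotype and 586 and 592 with anti-CTLA-4 (log2 -0.33 ± 0.04, adjusted p = 1.17e-07). Atp5f1a and Atp5f1c, for subunits alpha and gamma, fell by 0.32 and 0.30.

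The WT count rested on single libraries more than the muMT count did. Without WT isotype replicate 1, and again without WT anti-CTLA-4 replicate 1, 20 nuclear members were called lower. With the trend of fold change on protein length removed over all genes, 24 of the 78 nuclear members with a length were lower and 1 was higher, with a median of -0.12.

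The comparison in muMT hosts asked the same without B cells. Here 64 of 82 nuclear members rose and 2 fell, with a median log2 fold change of 0.32 beside a median near 0 for all genes. Of all genes tested, 42.5% were called, 22.1% higher and 20.4% lower. The nuclear complexes rose together: 26 of 36 in complex I, 4 of 4 in complex II, 7 of 8 in complex III, 10 of 16 in complex IV and 17 of 18 in complex V. The counts in muMT were 59 to 67 higher when any 1 library was left out, and 46 of 78 higher and 6 lower with the length trend removed.

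Cox7b, a small subunit of complex IV, had the largest rise among them. It was at 96.6 and 91.5 CPM in muMT with isotype and 150 and 156 with anti-CTLA-4 (log2 0.70 ± 0.05, adjusted p = 4.44e-12). Ndufa12, an accessory subunit of complex I, was at 34.3 and 36.5 against 54.3 and 56.8 CPM (log2 0.65 ± 0.07, adjusted p = 1.46e-09). For both, the anti-CTLA-4 libraries were far above the isotype libraries. Cox6a1 and Cox5a, also of complex IV, rose by 0.63 and 0.48, and Ndufb1 and the core subunit Ndufs1 of complex I by 0.53 and 0.42.

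Sdhc and Sdha rose by 0.54 and 0.40 in muMT, and Sdhb by 0.35. Uqcrc1, a core protein of complex III, was at 113 and 118 CPM with isotype and 164 and 163 with anti-CTLA-4 (log2 0.51 ± 0.05, adjusted p = 1.29e-09). Uqcrb and Uqcr10 rose by 0.43 and 0.38. Atp5f1b was at 748 and 716 CPM with isotype and 973 and 973 with anti-CTLA-4 (log2 0.41 ± 0.04, adjusted p = 1.36e-09), the reverse of its direction in WT. Atp5po, the subunit of complex V that confers oligomycin sensitivity, rose by 0.58.

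The difference of the 2 effects was tested directly, as WT minus muMT. It was called for 72 of 82 nuclear members, all of them lower in WT, with a median of -0.49. Of all genes tested, 37.3% were called, 19.8% lower and 17.5% higher. No nuclear member was called higher, none was at an unadjusted p under 0.05 in that direction, and the Wald test called 69 lower and none higher. The effects in the 2 hosts came from separate libraries. Markers of other cells also had differences called: 6 of 6 mast cell markers, which rose in WT and fell in muMT (13.7 to 14.8 CPM with isotype and 23.7 to 25.2 with anti-CTLA-4 in WT, 20.1 to 21.7 and 7.06 to 7.32 in muMT), and 7 of 8 of fibroblast and mural cells, all higher as WT minus muMT. Of 8 endothelial markers, 5 were higher and 2 lower for the difference. Their sum was 255 to 260.2 CPM with isotype and 299 to 309.6 with anti-CTLA-4 in WT, and 149 to 155 and 247 to 253 in muMT. Within hosts, 6 endothelial markers rose and 1 fell in WT, while in muMT 2 rose and 5 fell although the sum was higher. Of all genes tested, 14.7% rose and 15.9% fell in WT, and 22.1% and 20.4% in muMT. Neutrophil markers summed to 16.1 to 16.7 CPM with isotype and 4.08 to 5.14 with anti-CTLA-4 in WT, and to 16.3 to 16.6 and 14.4 to 15.4 in muMT. No marker of these lists was at 0 in all libraries, and their part in the result was not tested. Taken gene by gene, 39 of the 82 were lower in WT and higher in muMT with both called, a pattern found in 4.92% of all genes tested.

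Differences were called for all members tested of complexes II (4) and III (8), for 32 of 36 in complex I, 17 of 18 in complex V and 11 of 16 in complex IV. Among nuclear members, Ndufa12 had the most negative difference, -0.93 ± 0.10 (SE, adjusted p = 4.54e-09), followed by Atp5mc1 at -0.90 and Cox6a1 at -0.89. Sdhc was at -0.84, Cox7b at -0.83, and Atp5f1b and Uqcr10 at -0.74. A further 9 members fell in WT and were not called in muMT, namely Ndufa4, Ndufa6, Ndufb11, Ndufs7, Ndufs8, Ndufv2, Ndufv3, Uqcrh and Atp5mc2. Another 25 rose in muMT and were not called in WT. These patterns were found in 5.997% and 12.3% of all genes tested. The 10 members whose difference was not called were Atp5mc2, Cox4i2, Cox6a2, Cox7a1, Cox7a2l, Ndufa1, Ndufa2, Ndufa4l2, Ndufa5 and Ndufa7. The difference was not called for 62.7% of all genes tested.

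**Figure D2:**
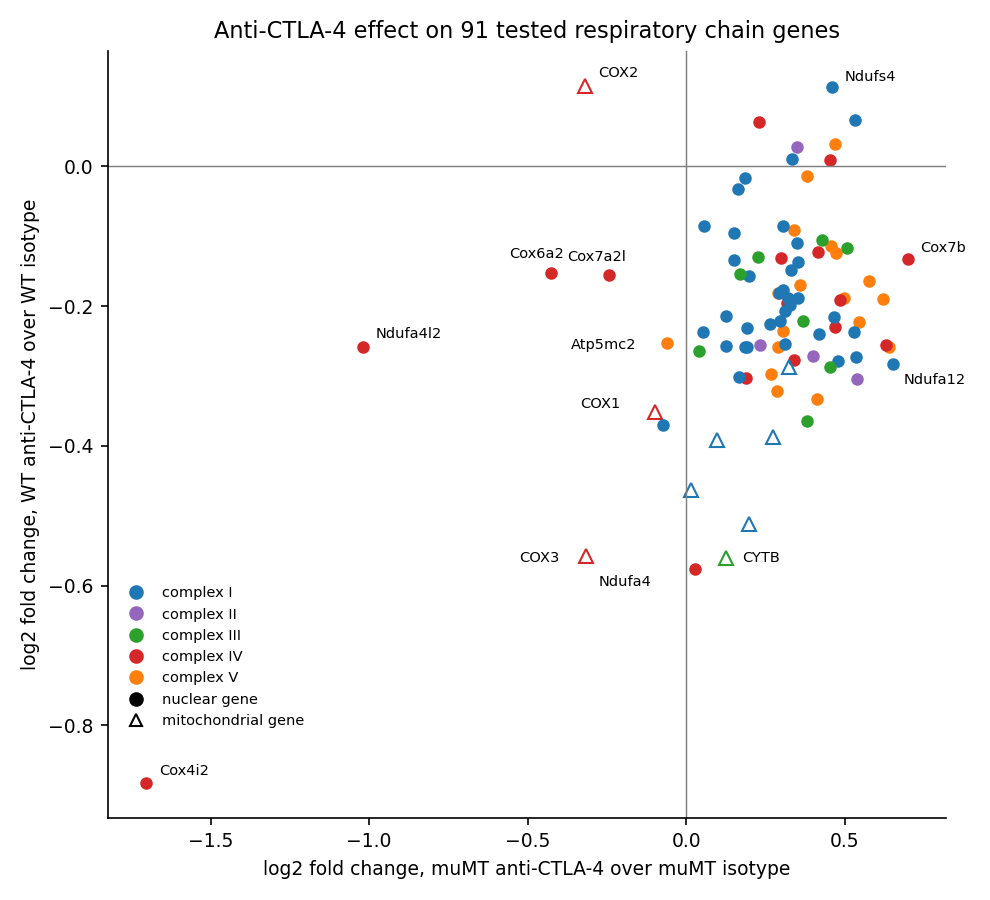
Log2 fold change with anti-CTLA-4 in muMT (horizontal axis) and in WT (vertical axis) for the 91 tested members, coloured by complex; filled circles are nuclear genes and open triangles mitochondrial ones. Most nuclear genes lie right of 0 (76 of 82) and below 0 (75 of 82), and the mitochondrial genes CYTB, ND1, ND2, ND4 and ND5 lie lower than most.

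**Figure D3:**
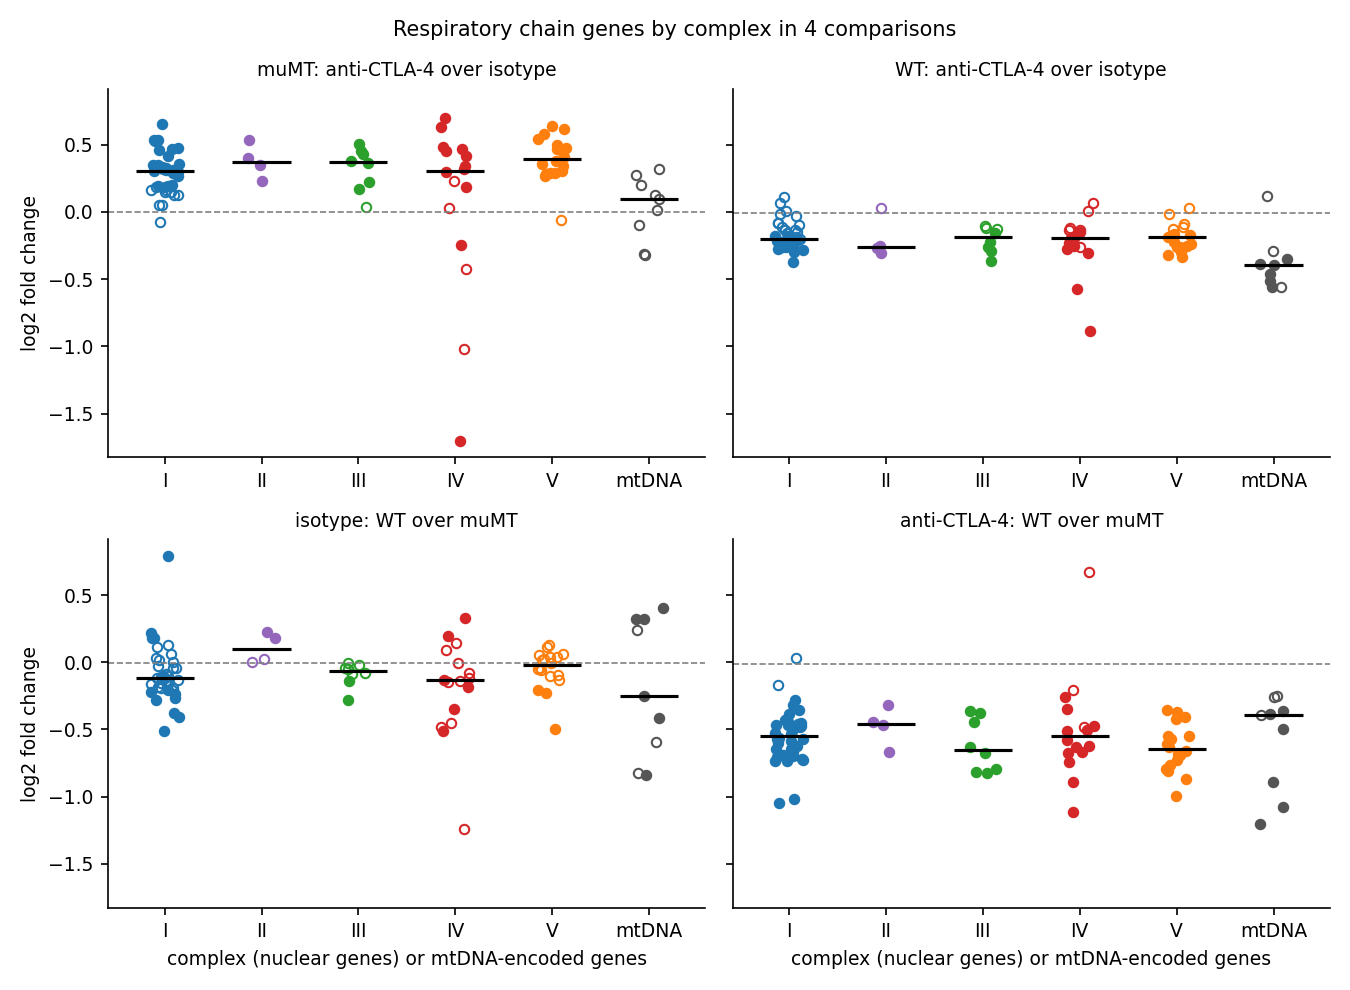
Log2 fold change by complex and genome of origin, with 1 point per tested gene, filled where called at an adjusted p under 0.05. Upper panels show anti-CTLA-4 over isotype in each host, and lower panels WT over muMT under isotype and under anti-CTLA-4. Black bars are medians and the dashed line is the median of all genes tested. With anti-CTLA-4, the nuclear and mitochondrial medians were -0.20 and -0.39 in WT, and 0.32 and 0.10 in muMT.

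Among the mitochondrially encoded genes, 6 of the 9 tested fell in WT (COX1, CYTB, ND1, ND2, ND4 and ND5) and none rose, with a median of -0.39. In muMT none of the 9 was called. At an unadjusted p under 0.05, edgeR's test had 1 higher there (ND5) and 1 lower (COX1), and the Wald test of DESeq2 called none. The difference was called for the same 6 genes that fell in WT, all of them lower in WT, with a median of -0.49. Over all genes tested, 30.5% were called in WT (15.9% lower), 42.5% in muMT and 37.3% for the difference (19.8% lower).

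CYTB, the cytochrome b of complex III, was at 101 and 104 CPM in WT given isotype and 69.2 and 70.3 with anti-CTLA-4 (log2 -0.56 ± 0.07, adjusted p = 4e-08). In muMT it was at 74.2 and 90.5 CPM with isotype and 90.1 and 89.4 with anti-CTLA-4 (log2 0.12, adjusted p = 0.121). The WT anti-CTLA-4 libraries were the lowest of all, and the muMT groups overlapped. The difference was -0.69 ± 0.09 (adjusted p = 5.18e-07).

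COX1, the catalytic subunit of complex IV, was at 4854 and 4456 CPM in muMT with isotype, 4340.4 and 4347 in muMT with anti-CTLA-4, 3853 and 3991 in WT given isotype, and 3075 and 3071 in WT given anti-CTLA-4. It fell in WT by 0.35 (SE 0.04, adjusted p = 4.07e-08) and stood at -0.10 in muMT (adjusted p = 0.0501). Its difference was -0.25 ± 0.06 (adjusted p = 0.000871), smaller than that of the other 5 genes called. The 4 groups did not overlap, with muMT isotype highest and WT anti-CTLA-4 lowest. In muMT COX1 was called lower with total reads (-0.15, adjusted p = 0.00353) and with DESeq2 size factors (-0.10, adjusted p = 0.0443).

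ND1 was at 88.8 and 89.4 CPM in WT given isotype and 60.8 and 68.3 with anti-CTLA-4, against 113 and 124, and 119 and 121, in the muMT groups. It fell in WT by 0.46 and was at 0.02 in muMT. ND5 was at 56.8 and 73.9 CPM in WT given isotype and 50.1 and 49.9 with anti-CTLA-4, and at 44.4 and 54.4, and 58.6 and 60.9, in muMT (log2 -0.39 in WT, 0.27 in muMT, adjusted p = 0.0268 and 0.0803). ND2 and ND4, at 8.01 to 12.8 and 22.2 to 33.8 CPM over the 8 libraries, fell in WT by 0.51 and 0.39. These ND genes encode membrane subunits of the proton pump of complex I. For all 4, muMT isotype replicate 1 was the lowest of the muMT libraries, as it was for CYTB.

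The calls in muMT changed with the setting. ND5 was called higher there with no filter (0.28), with reads of both strands (0.25) and with only the libraries compared (0.27). Without muMT isotype replicate 2, which was the higher of the pair for ND1, ND2, ND4, ND5 and CYTB, 4 mitochondrial genes were called higher with anti-CTLA-4 and 1 lower. Without muMT isotype replicate 1 it was 1 higher. In WT, 3 rather than 6 were called lower without WT isotype replicate 2, when ND2, ND4 and ND5 were at -0.36, -0.24 and -0.18. ND4 and ND5 were also not called without either WT anti-CTLA-4 library or in the Wald test (-0.38 and -0.37, adjusted p = 0.128 and 0.0868 in DESeq2), and the difference of ND4 was not called in the Wald test (-0.47, adjusted p = 0.169) or when 1 of 4 libraries was left out, WT isotype replicate 2 (-0.34), WT anti-CTLA-4 replicate 1 (-0.48), muMT isotype replicate 1 (-0.29) or muMT anti-CTLA-4 replicate 2 (-0.45). COX1, CYTB and ND1 were called lower in WT under all alternatives run.

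Counted reads of the mitochondrial genes were very uneven. Reads that match nuclear copies of mitochondrial DNA equally well were counted for no gene, so a low value here need not be a low transcript level. Per kilobase of gene and averaged over the libraries, COX1 stood at 2588 CPM, ND1 at 102, CYTB at 75.3, ND5 at 30.8, ND4 at 19.6 and ND2 at 9.64. ND6 stood at 3.37, COX3 at 1.90 and COX2 at 0.612. COX1 held 92.6% to 94.8% of the reads of all 13 genes in every library. Over all 8 libraries together, COX3 had 347 reads, COX2 97, ATP6 31, ND3 29 and ATP8 1, and ND4L had none in any library, where 3 reads would be 0.0959 to 0.121 CPM. ND6, COX2 and COX3 were tested and not called in either host or in the difference.

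Reads that mapped to several places were counted for no gene. They made up 8.03% to 9.26% of mapped reads in muMT libraries, 5.26% to 6.08% in WT given isotype and 4.51% to 4.60% in WT given anti-CTLA-4, and their part in the mitochondrial values was not tested. The sum of the other 12 genes without COX1 was 268 and 313 CPM in muMT with isotype, 309.8 and 316 in muMT with anti-CTLA-4, 288 and 317 in WT given isotype, and 214 and 222 in WT given anti-CTLA-4. In this sum the WT anti-CTLA-4 libraries lay below both WT isotype libraries, while the muMT groups overlapped. The mitochondrial ribosomal RNAs mt-Rnr1 and mt-Rnr2, which are no members, summed to 6058 ± 133 CPM in muMT with isotype, 4968 ± 74.5 in muMT with anti-CTLA-4, 4802 ± 263 in WT given isotype, and 3829 ± 154 in WT given anti-CTLA-4.

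Between hosts given isotype, the median change of the nuclear members was small. In WT isotype against muMT isotype, 7 of 82 were higher and 17 lower (median -0.09), where 39.2% of all genes tested were called, 19.9% higher and 19.2% lower. The members higher in WT were Ndufb1, Ndufb2 and Ndufs1 of complex I, Sdha and Sdhc of complex II and Cox5a and Cox5b of complex IV. Ndufb2, an accessory subunit, was at 11.5 and 12.5 CPM in muMT isotype and 22.9 and 18.6 in WT isotype (log2 0.79 ± 0.10, adjusted p = 2.27e-07). Under anti-CTLA-4 it did not differ by the test (16.03 and 17.5 against 17.4 and 16.9 CPM, adjusted p = 0.795).

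The 17 that were lower in WT isotype included Ndufa4 (-0.51), Ndufs6 (-0.51), Atp5mc2 (-0.50), Ndufs8 (-0.41), Ndufa7 (-0.38), Cox7a2l (-0.34), Uqcrb (-0.28) and Cox4i1 (-0.19). These counts moved with the setting. Without WT isotype replicate 1, 4 were higher, with Ndufb1, Sdhc and Cox5b no longer called (0.14, 0.11 and 0.05). Without muMT isotype replicate 2, Ndufb1 and Ndufs1 were not called (0.14 and 0.13), and without WT isotype replicate 2, 11 were lower. With reads of both strands, 28 were lower, and with the length trend removed 17 of 78 were higher and 9 lower. Of the mitochondrial genes, ND2, ND5 and CYTB were higher in WT isotype and ND1, COX1 and COX3 lower. Without muMT isotype replicate 1, and again without WT isotype replicate 2, 1 mitochondrial gene was higher and COX3 was not called (-0.64 and -0.73).

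Between hosts given anti-CTLA-4, 77 of 82 nuclear members were lower in WT and none was higher, with a median of -0.57. Of all genes tested, 56.1% were called, 28.7% lower and 27.4% higher. No nuclear member was higher at an unadjusted p under 0.05 in edgeR, and the Wald test called 76 lower and none higher. These include 34 of 36 in complex I, all 4 of complex II, all 8 of complex III, 13 of 16 in complex IV and all 18 of complex V. Ndufs6, an accessory, zinc-binding subunit of complex I, was at 25.9 and 26.0 CPM in muMT and 13.2 and 12.5 in WT (log2 -1.02 ± 0.09, adjusted p = 7.89e-11). Of the mitochondrial genes, 6 of 9 were lower in WT (COX1, COX3, CYTB, ND1, ND2 and ND6) and none higher, with a median of -0.39. COX3 was not called without muMT anti-CTLA-4 replicate 2 (-0.68), nor ND2 in the Wald test (-0.37), while ND4 and ND5 were called lower with no filter (both -0.25). With the length trend removed, 54 of 78 nuclear members were lower and 4 higher, with a median of -0.30. These comparisons share their libraries with those of the antibody within hosts.

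Within complex IV, Ndufa4 fell in WT and was not called in muMT. It was at 47.6 and 46.7 CPM in muMT with isotype, 47.5 and 48.5 in muMT with anti-CTLA-4, 34.8 and 31.3 in WT given isotype, and 21.6 and 22.7 in WT given anti-CTLA-4. The muMT groups overlapped, and each WT group lay below them, the anti-CTLA-4 libraries lowest. In WT it fell by 0.58 (SE 0.07, adjusted p = 2.66e-07), in muMT the log2 fold change was 0.03 ± 0.07 (adjusted p = 0.781), and the difference was -0.60 ± 0.10 (adjusted p = 1.37e-05). Under anti-CTLA-4, WT was below muMT (log2 -1.12 ± 0.07, adjusted p = 5.28e-14). With the length trend removed, Ndufa4 was lower in muMT as well (-0.16, adjusted p = 0.0379).

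AA467197, whose human counterpart C15orf48 encodes a paralogue of NDUFA4 known to take its place in complex IV during inflammation, is no member and was looked up after values were seen. It was at 38.3 and 37.9 CPM in muMT with isotype, 88.8 and 93.6 in muMT with anti-CTLA-4, 50.4 and 48.3 in WT given isotype, and 116 and 117 in WT given anti-CTLA-4. It rose with anti-CTLA-4 in both hosts, 2.39-fold in muMT and 2.36-fold in WT, with no difference called (-0.02 ± 0.08, adjusted p = 0.895). With the length trend removed, that difference was 0.28 (adjusted p = 0.0052). Of the reads of the pair, Ndufa4 held 55.4% and 55.2% in muMT with isotype, 34.9% and 34.1% in muMT with anti-CTLA-4, 40.9% and 39.3% in WT given isotype, and 15.7% and 16.2% in WT given anti-CTLA-4.

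The c-ring of complex V, the rotor that protons turn, is built from 1 protein encoded by 3 genes, which differ in the part removed on import. Atp5mc1 was at 63.2 and 72.9 CPM in muMT with isotype, 106 and 106 in muMT with anti-CTLA-4, 66.9 and 60.3 in WT given isotype, and 51.9 and 54.4 in WT given anti-CTLA-4. It rose in muMT by 0.64 and fell in WT by 0.26 (difference -0.90 ± 0.09, adjusted p = 3.06e-09). Atp5mc3 rose in muMT by 0.50 and fell in WT by 0.19 (difference -0.69). Atp5mc2 was at 46.2 and 53.9 CPM in muMT with isotype, 47.4 and 48.5 in muMT with anti-CTLA-4, 37.7 and 33.2 in WT given isotype, and 28.6 and 30.8 in WT given anti-CTLA-4. It fell in WT by 0.25 (adjusted p = 0.015), was at -0.06 in muMT (adjusted p = 0.531), and its difference was not called (-0.19 ± 0.11, adjusted p = 0.173). The inhibitor gene Atp5if1 followed Atp5mc1, at 0.62 in muMT, -0.19 in WT and -0.81 for the difference, all called. Without WT anti-CTLA-4 replicate 1, the falls in WT of Atp5mc1, Atp5mc2, Atp5mc3 and Atp5if1 were not called (-0.22, -0.20, -0.16 and -0.15), nor was that of Uqcrq (-0.21). The same held for the first 4 without WT isotype replicate 1. Without muMT isotype replicate 2, the difference of Atp5mc2 was called (-0.31), and with the length trend removed its change in muMT was called lower (-0.19).

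Of the 82 tested nuclear members, Cox7a2l and Cox4i2 fell in both hosts, as did 4.94% of all genes tested. Cox7a2l, counted with complex IV, was at 216 and 225 CPM in muMT with isotype, 185 and 188 in muMT with anti-CTLA-4, 179 and 169 in WT given isotype, and 158 and 154 in WT given anti-CTLA-4. It fell by 0.24 in muMT (adjusted p = 9.24e-05) and by 0.16 in WT (adjusted p = 0.013), and the difference was not called (0.09 ± 0.07, adjusted p = 0.33). Its 4 groups did not overlap. The WT call was lost without WT isotype replicate 1 (-0.12), without either WT anti-CTLA-4 library and with the length trend removed (-0.07), where the difference was called (0.31).

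Cox4i2, the form of subunit 4 known from lung and from cells around vessels, was low. It had 63 and 59 reads in muMT with isotype, 19 and 18 in muMT with anti-CTLA-4, 50 and 54 in WT given isotype, and 14 and 38 in WT given anti-CTLA-4. It fell by 1.70 in muMT (SE 0.34, adjusted p = 0.000126) and by 0.88 in WT (SE 0.32, adjusted p = 0.0381). The WT call was lost without WT anti-CTLA-4 replicate 1 (-0.39), without either WT isotype library and in the Wald test of DESeq2 (-0.88, adjusted p = 0.116). The difference was called without WT anti-CTLA-4 replicate 1 (1.31). Of the 8 fibroblast and mural markers, 7 fell in muMT, and in WT 5 fell and 1 rose, where 20.4% and 15.9% of all genes fell in these hosts. Their sum ran from 368 to 373 CPM in muMT with isotype, 135.7 to 136.0 in muMT with anti-CTLA-4, 256 to 267 in WT given isotype, and 181 to 185 in WT given anti-CTLA-4, and their part was not tested.

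**Figure D4:**
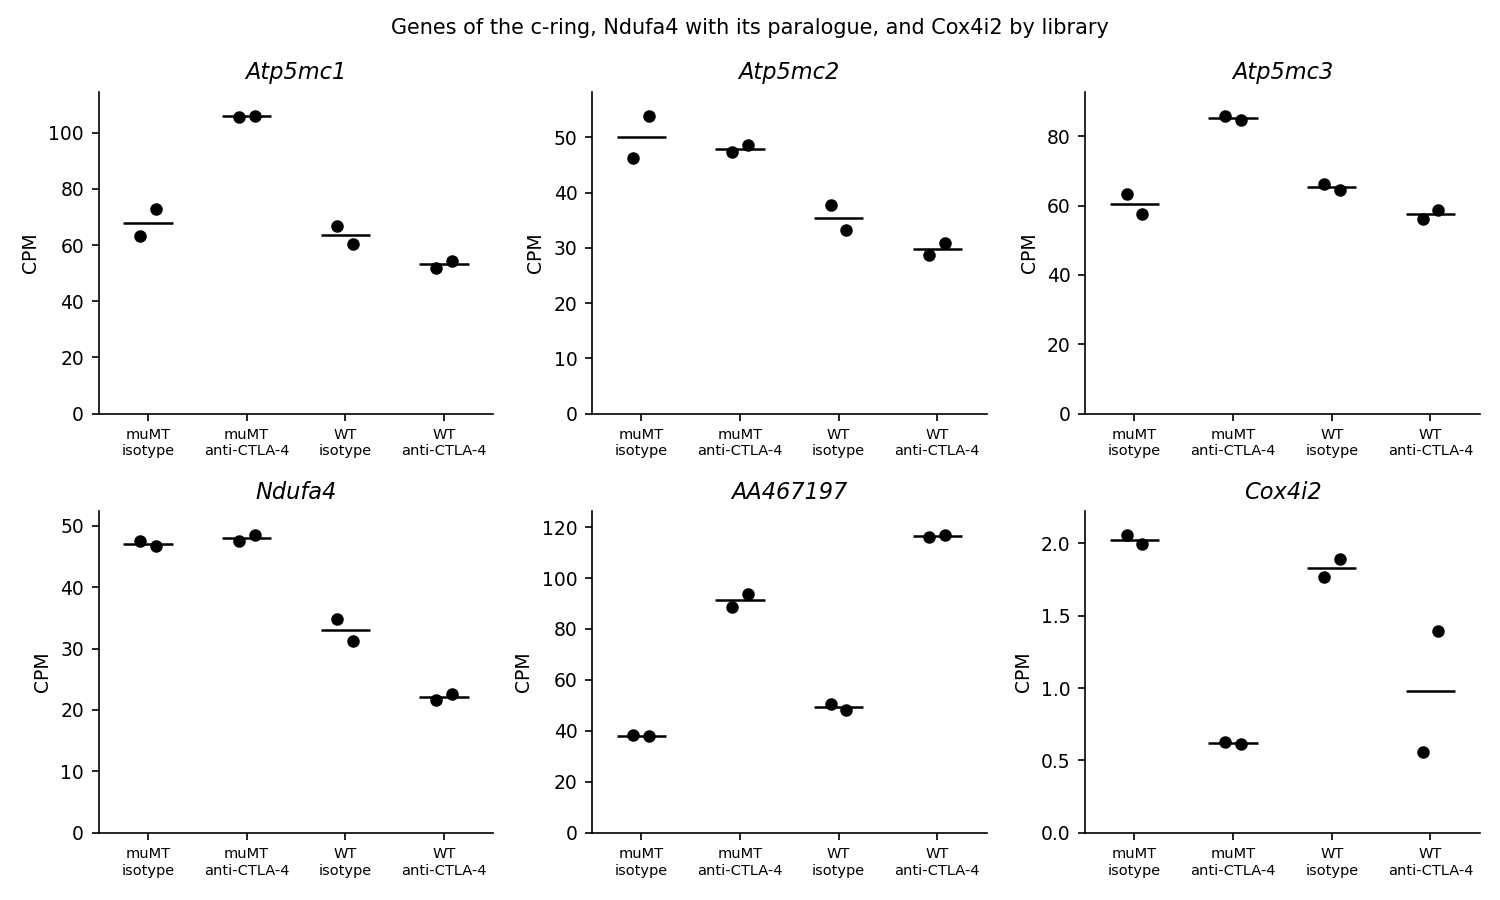
Level (CPM, axes from 0) of the 3 genes of the c-ring, of Ndufa4 and its paralogue AA467197, and of Cox4i2 by group; points are libraries and bars the means of 2. Atp5mc1 and Atp5mc3 are highest in muMT anti-CTLA-4 while Atp5mc2 is not, and Ndufa4 and AA467197 are at 21.6 and 116 CPM in WT anti-CTLA-4 replicate 1.

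The other forms restricted to certain tissues were rare. Cox6a2 and Cox7a1, known from heart and skeletal muscle, had 18 to 49 and 32 to 69 reads per library, against 41.8 to 82.0 CPM for Cox6a1 and 63.6 to 100 CPM for Cox7a2. Ndufa4l2, known from low oxygen, had 2 to 20 reads. None of these 3 was called within a host. The 7 muscle markers summed to 0.912 to 1.4203 CPM, with Myh4 at 0 throughout. Cox6b2, known from testis, had 2 to 10 reads a library, Cox8b 1 read in all, and Cox7b2 and Cox8c none. With Cox6c2, Ndufa11b, Ndufb11b, Ndufb4b, Ndufb4c and Ndufs6b, which had 0 to 12 reads a library, these made up the 10 nuclear members that did not pass the filter on low counts.

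Antisense or overlapping genes touched some members. When reads of both strands were counted, reads that overlapped 2 genes dropped out, and Ndufa1 kept 30.0% of its reads, Cox7a2 28.9%, Cox7a1 16.2%, Ndufb1 44.5% and Atp5mk 53.4%. Values of these 5 rest on the strand of the reads. Other members lost smaller parts, among them Ndufa9 (71.4% kept), Uqcrc2 (76.3%) and Ndufs1 (82.7%).

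Around the chain itself, the genes of cytochromes c and c1 rose in muMT. Cycs, which carries electrons from complex III to IV, had a mean of 58.5 ± 2.24 CPM in muMT with isotype, 100 ± 2.89 in muMT with anti-CTLA-4, 66.9 ± 2.61 in WT given isotype, and 65.5 ± 1.51 in WT given anti-CTLA-4. It rose in muMT by 0.78 and was at -0.03 in WT. Cyc1, the cytochrome c1 of complex III whose symbol the rule does not reach, rose by 0.72 in muMT and fell by 0.32 in WT. Its difference of -1.04 lay further below 0 than that of any member, and Ndufab1, a carrier protein bound in complex I, was at -0.67. Of this list of 24 electron carriers and further subunits, 13 rose and 3 fell in muMT, and 3 rose and 5 fell in WT (medians 0.23 and -0.10). Over all genes tested, 22.1% rose and 20.4% fell in muMT, and 14.7% and 15.9% in WT. Etfb of the electron transfer flavoprotein followed Cyc1, with 0.60 and -0.36, while Gpd2, the glycerol phosphate dehydrogenase, rose in both hosts by 0.38 and 0.74. Coq8a, of ubiquinone synthesis, fell in muMT by 1.05. Nnt, the transhydrogenase known for a deletion in the C57BL/6J substrain, differed 2.68-fold between the isotype groups, with WT above muMT (54.8 ± 0.871 against 20.5 ± 0.529 CPM, adjusted p = 2.58e-16). The labels name no substrain.

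Of 52 assembly factors tested, 26 rose and 3 fell in muMT (median 0.28), and 2 rose and 7 fell in WT (median -0.03), where 22.1% of all genes rose and 20.4% fell in muMT, and 14.7% and 15.9% in WT. The difference was called lower for 20 and higher for 2, where 19.8% of all genes were lower and 17.5% higher. Uqcc2, which helps to assemble complex III, rose in muMT by 0.54 and was at 0.01 in WT. Coa5 and Sco1, of complex IV, rose in muMT by 0.62 and 0.50, and Coa5 also rose in WT, by 0.22. Ttc19 rose in WT by 0.38 and Higd2a fell there by 0.39, though with reads of both strands Ttc19 was not called (0.20), nor was Higd2a without WT anti-CTLA-4 replicate 2 (-0.28). Higd2a also fell in muMT. That call was lost in the Wald test (-0.24), without muMT isotype replicate 2 (-0.17) and without either muMT anti-CTLA-4 library (-0.23 and -0.23).

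Of 17 genes for the upkeep and transcription of mitochondrial DNA, 2 rose and 2 fell in WT, and 1 rose and 3 fell in muMT, with medians of 0.05 in both hosts. Of all genes tested, 30.5% were called in WT and 42.5% in muMT. Tfam, which packs mitochondrial DNA and starts its transcription, was at 21.7 ± 0.686, 21.6 ± 1.61, 19.2 ± 1.31 and 18.2 ± 0.537 CPM in the order of groups used above, and Polrmt, the polymerase, at 11.4 ± 0.962, 11.2 ± 0.225, 12.98 ± 0.00381 and 12.2 ± 1.56. Neither was called in a host or in the difference. Mterf2, of the family of mitochondrial termination factors, rose in WT by 0.71 and fell in muMT by 0.79. The helicase gene Twnk fell in WT by 0.34. Without WT anti-CTLA-4 replicate 1, neither Mterf2 (0.62) nor Twnk (-0.21) was called in WT. Mterf2 was also not called in WT without either WT isotype library (0.75 and 0.67), with reads of both strands (0.41) or in the Wald test (0.73). Twnk was also not called there without WT isotype replicate 2 (-0.27) or in the Wald test (-0.32). In muMT Mterf2 was not called without either anti-CTLA-4 library (-0.75 and -0.80), without muMT isotype replicate 1 (-0.69) or in the Wald test (-0.79). Of 19 genes tested that process or stabilise mitochondrial RNA, 11 rose and none fell in muMT, and 3 rose and none fell in WT. The WT calls, of Mtpap, Supv3l1 and Rexo2, were each lost when single libraries were left out. Without WT isotype replicate 1, Mtpap (0.17) and Rexo2 (0.25) were not called, and without WT anti-CTLA-4 replicate 1, Supv3l1 (0.23) and Rexo2 (0.23) were not. Lrpprc, which with Slirp holds mitochondrial mRNA stable, rose in muMT by 0.52 and was at -0.12 in WT (difference -0.64).

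Of 16 regulators of mitochondrial biogenesis tested, 4 rose and 4 fell in WT, and 3 rose and 2 fell in muMT. Over all genes tested, 30.5% were called in WT and 42.5% in muMT. The transcription factors Nrf1, Gabpa and Esrra were at 0.04, -0.02 and 0.09 in WT and -0.02, 0.04 and 0.11 in muMT, none called. Ppargc1b, a coactivator of these factors, rose in both hosts, by 0.45 and 0.52, and Ppargc1a had 0 to 10 reads per library and was not tested. Hif1a, of the response to low oxygen, rose in both, by 0.61 and 0.72, and Myc fell in both, by 0.33 and 0.36. Myc was not called in WT without WT isotype replicate 1 (-0.25) or in muMT without muMT isotype replicate 2 (-0.20). Pparg, a nuclear receptor of lipid metabolism, fell in WT by 1.25, from 15.8 ± 0.161 to 6.63 ± 0.0299 CPM, and was at 0.21 in muMT (difference -1.46). It was the 1 regulator called lower for the difference, as Sirt1 was the 1 called higher. These were 12.5% of the regulators tested, where 37.3% of all genes tested were called.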

How the data were processed

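The authors deposited raw read counts per gene as STAR writes them, and reads mapping to several places were counted for no gene. Per the submitters' processing notes, the tools were cutadapt 5.0 for trimming, STAR 2.7 for alignment on mm39 and DESeq2 1.42.1. The annotation behind the counts is not given in the sources used here. Libraries were stranded total RNA per the labels, and the reverse-strand column was used, since it held most reads. Summary rows were set aside. Of 50763 genes listed, 30432 had a read and 16608 passed filterByExpr by group.

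After TMM scaling, edgeR 4.0.16 (limma 3.58.1, R 4.3.3) fitted 4 group means to the 8 libraries by robust quasi-likelihood with 4 residual degrees of freedom, and the common biological coefficient of variation was 4.11%. A gene was called (rose, fell, higher or lower) at a Benjamini-Hochberg adjusted p under 0.05 over all genes tested. The same p, from edgeR unless DESeq2 is named, stands beside each fold change, and SE is that of the log2 fold change. The SD beside CPM is over 2 libraries. The scripts were tested on simulated data.

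The alternatives were DESeq2 1.42.0 size factors or its Wald test, total reads without TMM, no filter, reads of both strands, a block for the replicate number, no robust dispersion, each library left out, only the libraries compared, and fold changes with the trend on protein length removed (longest coding length in GENCODE vM21, known for 95 of 105 members). Promoters came from RefSeq, GRCm38.p6, another build than that of the counts.

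Named were all mitochondrial members, per comparison and complex up to 3 nuclear members with the smallest p in each direction, the tissue-restricted forms and their partners, the c-ring genes, Atp5if1, up to 3 genes per list and direction, and a fixed set of regulators. Some such genes are named by count only. Genes outside this rule (AA467197, Atp5pf, Ndufs6 in WT, and those in lists of not called members) were chosen after values were seen. The members and lists were chosen with earlier results of these data known. Coa1 and Fastkd4 were not among the genes analysed here. The result of 1 further gene that the rule names is not reported here.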

Additional observations from a re-analysis of the deposited data

Results flagged for a closer look

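The effect of anti-CTLA-4 differed between WT and muMT hosts, by edgeR's test of the difference itself, for 72 nuclear members and 6 mitochondrially encoded members. All lay below 0 as WT minus muMT. Of all genes tested, 37.3% were called for this difference, 19.8% lower and 17.5% higher. On the log2 scale, the nuclear members named per complex were Ndufa12 (-0.93), Ndufs1 (-0.66) and Ndufa13 (-0.68) in complex I, Sdha (-0.67), Sdhc (-0.84) and Sdhd (-0.49) in complex II, and Uqcrc1 (-0.62), Uqcr10 (-0.74) and Uqcrb (-0.53) in complex III. In complex IV they were Cox7b (-0.83), Cox6a1 (-0.89) and Cox5a (-0.67), and in complex V Atp5f1b (-0.74), Atp5f1a (-0.61) and Atp5mc1 (-0.90). The mitochondrial genes were ND1 (-0.48), ND2 (-0.71), ND4 (-0.49), ND5 (-0.66), COX1 (-0.25) and CYTB (-0.69). That of ND4 was not called when any of 4 libraries was left out in turn (-0.48 to -0.29). With groups of 2 libraries, a library that stands apart could not be tested for.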

How the results depend on the processing

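Under the alternatives, 300 counts of calls stayed within 1.5 times of those reported and 36 did not. Median log2 fold changes of the members stayed within the SD between libraries in 120 cases and moved further in 48. For the ratio of nuclear to mitochondrial reads these numbers were 10 and 2. With the protein length trend removed, nuclear calls were 1 higher and 24 lower in WT, 6 lower in muMT, 1 higher for the difference, 17 higher and 9 lower between isotype groups, and 4 higher between anti-CTLA-4 groups. With the unstranded column they were 28 lower between isotype groups and 1 higher between anti-CTLA-4 groups. In muMT, 1 mitochondrial gene was higher with no filter, the unstranded column, the replicate block, no robust dispersion, only the libraries compared or the length trend removed, and 1 was lower with DESeq2 size factors, with total reads or with no robust dispersion. Between isotype groups 1 was higher by the Wald test. The causes were not tested.

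With each library left out in turn, nuclear calls ran from 20 to 52 lower in WT, 0 to 1 higher for the difference, 4 to 9 higher and 11 to 23 lower between isotype groups, and 0 to 1 higher between anti-CTLA-4 groups. Mitochondrial calls ran from 3 to 6 lower in WT, 0 to 4 higher and 0 to 1 lower in muMT, and 1 to 4 higher between isotype groups.

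Of the values of single genes under alternatives, 5607 were called or not called as before, 76 gained a call and 245 lost theirs. A further 6 reversed. With the length trend removed these were Ndufa4 in muMT (-0.16), AA467197 for the difference (0.28), Cox6b1 between isotype groups (0.0113), and Max and Cox7a2l between anti-CTLA-4 groups (0.11 and 0.0778). With the unstranded column it was Cox7a1 between anti-CTLA-4 groups (0.35).

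Same-numbered libraries showed no common shift: their deviations correlated at -0.04 to 0.02 over 6 pairs of groups. Whether such libraries were handled together cannot be told from this. With the number as a block, nuclear calls were 47 lower in WT, 64 higher in muMT, 71 lower for the difference, and 7 higher and 16 lower between isotype groups. ATP6, ATP8, ND3 and ND4L had too few counted reads to be tested.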
